A study of Mus musculus with 13 samples.

Results

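Store-operated calcium entry genes were followed in the brown adipose tissue of mice, a depot specialised for producing heat. The 6 genes were Stim1, Stim2, Orai1, Orai2, Orai3 and Saraf, taken by symbol from a table of 55357 genes. STIM proteins sit in the membrane of the endoplasmic reticulum (ER), sense falling calcium in its lumen, and move to contacts with the plasma membrane. There they open Orai proteins, the pores that let calcium in, and SARAF slows the channel again once entry has begun. In fat cells this route refills the ER store after hormone-evoked calcium release.

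The samples were 13 libraries of whole brown adipose tissue. KO mice carried Stim1/2_Adp-Cre, a loss of Stim1 and Stim2 in cells with Cre under the adiponectin promoter. Controls carried Stim1/2_fl/fl, the floxed alleles with no Cre named, although the series description calls them wild type. Both genotypes were sampled after room temperature (RT) and after cold (6 h at 4 °C), giving 2 control RT, 3 KO RT, 4 control cold and 4 KO cold libraries. No strain, sex or age is stated in the labels. Nor do they say whether each library is 1 animal, and the spread behind every p-value may therefore be partly technical. The adiponectin promoter is active in adipocytes of every depot, and the other cells of the tissue keep both genes. Tags read the mRNA end, which may lie outside the floxed exons, so the level of Stim1 or Stim2 does not measure the deletion itself.

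Each library held 1570684 to 2016178 counts. The libraries were 3′ tag libraries, which read 1 end of each mRNA, so levels are given as CPM (library-scaled counts) and were not divided by length. Ucp1, the heat-making carrier that defines brown fat, was at 2436 to 9365 CPM. All 12 adipocyte markers were above the low-count filter. Markers of skeletal muscle, 13 genes, varied most: they summed to 3264 and 127 CPM in control RT 1 and 2, to 2032, 1436 and 209 CPM in KO RT 1, 2 and 3, and to 53.0 to 483 CPM in cold. "Changed" below means an adjusted p under 0.05 over all 11073 tested genes in edgeR's quasi-likelihood test. Fold changes are log2 ± standard error.

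The 6 genes lay at very different levels. By the median over the libraries, Saraf came first at 268 CPM, followed by Stim1 at 108 CPM. Stim2 and Orai3 were next, with medians of 29.0 and 28.5 CPM and overlapping ranges (13.5 to 54.5 and 19.8 to 36.8 CPM). Orai1 had a median of 11.8 CPM, and Orai2 had 9 counts in all 13 libraries together. By mean CPM, Saraf stood above 94.5% of tested genes, Stim1 above 82.7%, Stim2 above 53.7%, Orai3 above 52.6% and Orai1 above 27.0%. Orai2 did not pass the low-count filter and was not tested, leaving 5 of the 6 genes.

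**Figure D1:**
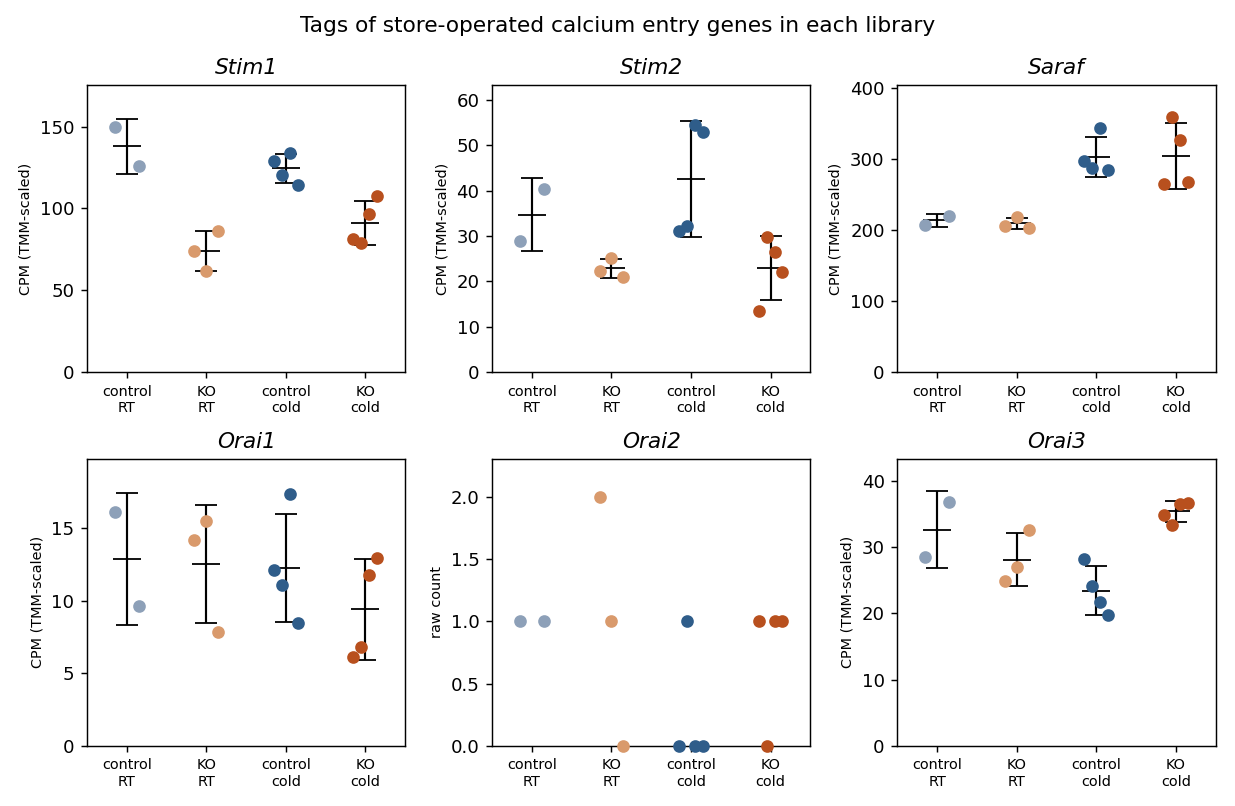
Level of each gene in every library (points) by group, as TMM-scaled CPM, with the mean and SD in black. Orai2 is shown as raw counts with no mean, since no library had more than 2. Stim1 and Stim2 are lower in KO than in control points of the same temperature, Saraf is higher in cold than at RT, and Orai3 in KO cold lies above every control cold point.

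Stim1 (ENSMUSG00000030987.6, chromosome 7), the main sensor of store emptying, stood at 126 and 149.9 CPM in control RT and at 62.0, 74.0 and 86.1 CPM in KO RT. In cold it stood at 114, 120.5, 129 and 134 CPM in controls and at 78.8, 81.4, 96.8 and 108 CPM in KO. Every KO library was below every control library of its temperature. Without overlap, 6.53% of tested genes were lower in KO in cold and 7.96% at RT, where 8.68% were higher and 16.6% either. At both temperatures 0.894% were lower and 1.05% higher, and Stim1 and Stim2 were among the lower.

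Averaged over both temperatures, Stim1 fell in KO to 62.7% of control (95% interval 53.5% to 73.4%, -0.67 ± 0.11, edgeR adjusted p = 0.00345). This averaged comparison uses the same libraries as the single ones and is not independent of them. It changed 1.3% of tested genes, 0.433% higher and 0.867% lower. The fall of Stim1 kept an adjusted p of 0.00238 to 0.0212 whichever library was left out. It was also called under each of the 7 other settings tried for this comparison.

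Within single temperatures the depletion of Stim1 had wider error. At RT, KO held 53.6% of control (interval 41.9% to 68.8%), but its edgeR adjusted p was 0.349. It ranked second by p among 11073 genes in a comparison where edgeR called none, although 346 genes had an unadjusted p under 0.05 and DESeq2 called 3, Stim1 among them. In cold KO held 73.3% (interval 60.2% to 89.1%, edgeR adjusted p = 0.0570). DESeq2 called this difference (adjusted p = 0.0405), and edgeR called it without KO cold 4, the KO library with the most Stim1 (adjusted p = 0.0424). The fall in cold was smaller than that at RT by 0.45 ± 0.22 on the log2 scale, a difference that did not pass (edgeR adjusted p = 0.606).

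Stim2 (ENSMUSG00000039156.20, chromosome 5) encodes the sensor that answers to smaller losses of store calcium. It was at 29.0 and 40.4 CPM in control RT and at 21.0, 22.3 and 25.2 CPM in KO RT. In cold, controls split into a pair near 32 CPM (31.1 and 32.1) and a pair above 50 CPM (52.9 and 54.5), and KO libraries lay at 13.5, 22.0, 26.4 and 29.7 CPM. KO was again below control without overlap at each temperature. Counts of Stim2 were 22 to 88 per library, so counting error alone gave a coefficient of variation of 12.2% to 15.6% in a library of average count.

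In cold Stim2 fell to 54.4% of control (interval 38.3% to 77.2%, -0.88 ± 0.24, edgeR adjusted p = 0.0382). In that comparison 5.93% of tested genes changed, 2.44% higher and 3.49% lower, and 2 of the 5 tested members did. Leaving out KO RT 1, either of control cold 3 and 4, or any KO cold library but the second moved the adjusted p to between 0.0533 and 0.105. At RT Stim2 stood at 66.4% of control (interval 42.5% to 103.8%, edgeR adjusted p = 1). Averaged over both temperatures it stood at 60.1% (interval 45.2% to 79.8%), which edgeR did not call (adjusted p = 0.0730) and DESeq2 did (adjusted p = 0.0328).

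The remaining share of the 2 sensors did not differ beyond its spread. The ratio of Stim2 to Stim1 counts inside a library does not depend on scaling. Its geometric mean was 0.334 in control cold, 0.246 in KO cold, 0.250 in control RT and 0.313 in KO RT. KO differed from control in cold by -0.44 on the log2 scale (exact permutation p = 0.229, two-sided) and over both temperatures by -0.06 (exact permutation p = 0.83). In whole tissue, fewer adipocytes and fewer transcripts per adipocyte cannot be told apart.

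Markers of tissue cells are given beside these levels. In cold the 12 adipocyte markers summed to 35657 to 40407 CPM in control and 33308 to 35183 CPM in KO, without overlap. Taken singly, 1 of 12 rose (Lipe, hormone-sensitive lipase), 0 fell and 11 did not pass. Their median was 0.11 and 7 of 12 were positive, so the sum and the median differ in direction. The sum is weighted by the most abundant of them and does not measure adipocyte number. In control cold and KO cold Lpl averaged 11473 and 9324 CPM, Fabp4 9124 and 8128 CPM, and Ucp1 8741 and 6641 CPM. Of the macrophage markers 0 of 10 tested passed and 10 of 10 were negative (median -0.61), with sums of 119 to 319 CPM in control cold and 122 to 160.2 CPM in KO cold. Of the fibroblast markers 0 of 11 passed and 11 of 11 were negative (median -0.56), with sums of 624 to 1719 and 647 to 769.5 CPM. Endothelial sums were 892 to 1527 and 1208 to 1464 CPM, and 0 of 12 passed. Of 8 tested smooth muscle and pericyte markers 1 fell, as did 1 of 6 tested Schwann cell markers. Of 5 tested erythrocyte markers 0 passed and 5 were positive (median 0.36). Of 13 muscle markers 0 passed and 11 were positive (median 0.24), and the 1 tested lymphocyte marker did not pass. The part of these markers in the levels of the 6 genes was not tested. In the RT library of each genotype with the lowest muscle sum, 1 library each, Stim1 was at 126 CPM (control RT 2) and 86.1 CPM (KO RT 3). Without control RT 1 the RT fold change of Stim1 was -0.77. Lymphocyte markers, 12 genes, summed to 71.1 CPM in control RT 2 and to 6.91 to 21.2 CPM in every other library. The part of lymphocytes in these levels was not tested.

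**Figure D2:**
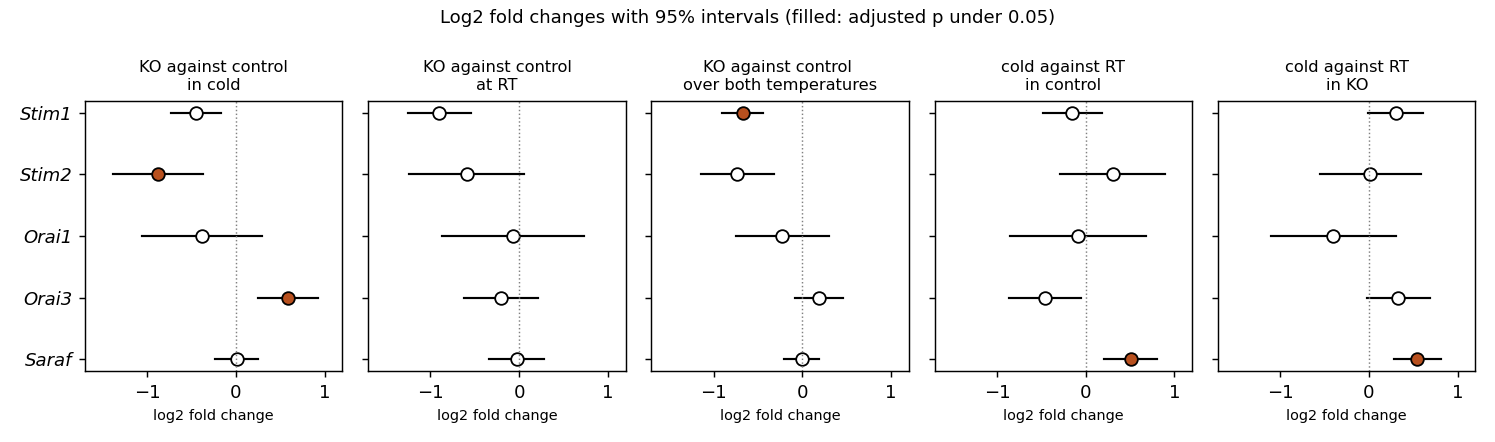
Log2 fold change (x axis) of the 5 tested genes in 5 comparisons, with 95% intervals as lines; filled points have an adjusted p under 0.05. Stim1 is filled over both temperatures (-0.67), Stim2 (-0.88) and Orai3 (0.59) in cold, and Saraf in both cold responses (0.50 and 0.54).

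Of the channel genes, Orai3 rose in KO in cold, Orai1 was not resolved and Orai2 was barely detected. Orai1 encodes the pore of the classical calcium release-activated current, and Orai3 a related pore that can join it. Orai2 is another family member that can dampen the current. The start regions of Orai3 and Orai1 are printed because these 2 channel genes were the ones with enough tags to compare. Each window runs from 250 bases before to 50 bases after the start site, from RefSeq on GRCm38.p6. That is not the build of the deposited counts, GRCm39. Orai3 lies at chr7:127769565-127769864 and Orai1 at chr5:123014824-123015123, both on the plus strand. Of the 6 genes, 5 had an entry in the promoter table, all but Saraf.
Orai3: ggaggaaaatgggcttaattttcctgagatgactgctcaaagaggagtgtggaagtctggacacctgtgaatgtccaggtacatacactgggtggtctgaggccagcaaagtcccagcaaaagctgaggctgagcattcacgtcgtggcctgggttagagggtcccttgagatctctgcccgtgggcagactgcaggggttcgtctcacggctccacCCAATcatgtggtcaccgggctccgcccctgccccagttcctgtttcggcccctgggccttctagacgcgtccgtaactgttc
Orai1: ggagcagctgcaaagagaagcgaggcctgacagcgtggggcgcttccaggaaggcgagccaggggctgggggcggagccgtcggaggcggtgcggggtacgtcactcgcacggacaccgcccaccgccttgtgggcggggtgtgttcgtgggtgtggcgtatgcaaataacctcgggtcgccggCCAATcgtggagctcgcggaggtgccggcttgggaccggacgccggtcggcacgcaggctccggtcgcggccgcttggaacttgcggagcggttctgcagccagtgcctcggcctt
Capitals mark the CCAAT box, a common proximal promoter element. It begins 33 bases before the start site in Orai3 and 66 before it in Orai1, on the plus strand in both. The windows differed in composition: the Orai3 window was 57.7% G and C with 11 CG dinucleotides, and the Orai1 window 70.3% with 36. The median over 32851 promoter windows was 52.7% G and C. In a search of both strands 37.4% of all windows held CCAAT, 7.15% CACGTG, 1.79% TGACGTCA and 0.119% the ER stress response element, a longer motif that begins with a CCAAT box. The other 3 motifs were not in the Orai3 or Orai1 window. Such a match is a description of the sequence only.

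Orai1 (ENSMUSG00000049686.15, chromosome 5) was at 9.64 and 16.1 CPM in control RT, and at 7.87, 14.2 and 15.5 CPM in KO RT. The control cold libraries held 8.47, 11.1, 12.1 and 17.3 CPM, against 6.12, 6.78, 11.8 and 12.98 CPM in KO cold. All 4 groups overlapped. With 10 to 35 counts per library, counting error alone amounted to 19.8% to 24.4% in a library of average count, and the SD between libraries was 30.4% to 36.9% of the mean. Over both temperatures KO stood at 85.5% of control (interval 59.5% to 123%, edgeR adjusted p = 0.780). A change of the size measured for Stim1 lies inside that interval, and Orai1 is therefore not resolved in these libraries.

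Orai3 (ENSMUSG00000043964.15, chromosome 7) was the 1 channel gene that changed with genotype. Control cold libraries held 19.8, 21.7, 24.1 and 28.2 CPM of it, and KO cold libraries 33.4, 34.9, 36.6 and 36.7 CPM. All KO cold libraries were above all control cold libraries, as for 6.28% of tested genes. Orai3 rose to 150.1% of control (interval 119% to 189.6%, 0.59 ± 0.16, edgeR adjusted p = 0.0382). The adjusted p was 0.0639 to 0.0924 after removal of a KO cold library (each of the 4) or of any control cold library except the first. It was 0.0842 with DESeq2, 0.0769 with no low-count filter and 0.0733 with the replicate number as a block. At RT the order was not the same: 28.5 and 36.8 CPM in control against 24.8, 27.0 and 32.5 CPM in KO (86.7%, interval 64.9% to 116%, edgeR adjusted p = 1). Averaged over both temperatures the difference was 0.19 ± 0.13 (edgeR adjusted p = 0.583).

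Orai3 thus had its lowest level in control cold (mean 23.4 ± 3.65 CPM, n = 4), then in KO RT (28.1 ± 3.99, n = 3) and control RT (32.6 ± 5.84, n = 2), and its highest in KO cold (35.4 ± 1.56, n = 4). Neighbours in this order had overlapping ranges. At RT, Orai3 was at 36.8 and 32.5 CPM in control RT 2 and KO RT 3, the libraries with the lowest muscle sums. In control RT 1 and in KO RT 1 and 2, with higher muscle sums, it was at 28.5, 24.8 and 27.0 CPM. In control cold 1 to 4 the muscle sums were 53.0, 80.3, 285 and 380 CPM. Their Orai3 levels were 28.2, 24.1, 21.7 and 19.8 CPM. In KO cold 1 to 4 the sums were 69.2, 67.8, 483 and 287 CPM, with Orai3 at 34.9, 33.4, 36.6 and 36.7 CPM. The part of muscle in these levels was not tested. All control cold libraries were below both control RT libraries, and all KO cold libraries above all KO RT libraries. That holds for 20.6% of tested genes in control (lower) and 15.8% in KO (higher, with 16.4% lower). Neither response passed: -0.46 ± 0.19 in control (edgeR adjusted p = 0.0890) and 0.33 ± 0.17 in KO (edgeR adjusted p = 0.181). With library totals as the only scaling, the response in control was called (-0.67, edgeR adjusted p = 0.0174). The 2 responses differed by 0.79 ± 0.25 (unadjusted p = 0.00642, edgeR adjusted p = 0.414). For the difference of responses edgeR called 2 of 11073 genes (0.0181%), none of them among these genes, and 913 had an unadjusted p under 0.05.

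The mix of the 2 measured channels separated the genotypes in cold, but its test did not pass after adjustment. Its numerator is the Orai3 counts already compared above, so it is not an independent result, and its denominator, Orai1, was not resolved. The Orai3 to Orai1 count ratio was 1.25 to 2.30 in control cold and 2.79 to 5.48 in KO cold, with no overlap. At RT it was 1.76 in control RT 1 and 1.74 and 1.73 in KO RT 1 and 2, the libraries with more muscle signal. It was 3.73 in control RT 2 and 4.03 in KO RT 3. The part of muscle in this ratio was not tested. In cold the geometric mean ratio was 2.00 times higher in KO (0.998 on the log2 scale, exact permutation p = 0.0286, two-sided). That is the smallest p that 4 against 4 allows, and it became 0.114 after Benjamini-Hochberg adjustment over the 4 ratio tests. Over both temperatures the ratio differed by 0.42 on the log2 scale (exact permutation p = 0.289). As a description whose numerator is made of the 2 targeted genes, the summed Stim1 and Stim2 counts were 3.95 to 5.86 times the summed Orai counts in control cold, and 2.27 to 2.69 times in KO cold. At RT they were 3.52 to 3.95 times the Orai counts in control and 2.02 to 2.64 times in KO.

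Orai2 (ENSMUSG00000039747.12, chromosome 5) was barely seen. It had 1 count over 4 control cold libraries, 3 over 4 KO cold, 2 over 2 control RT and 3 over 3 KO RT. The 9 counts correspond to 0.392 CPM (95% Poisson interval 0.179 to 0.745, counting error only). A difference between groups was not detectable at this depth.

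**Figure D3:**
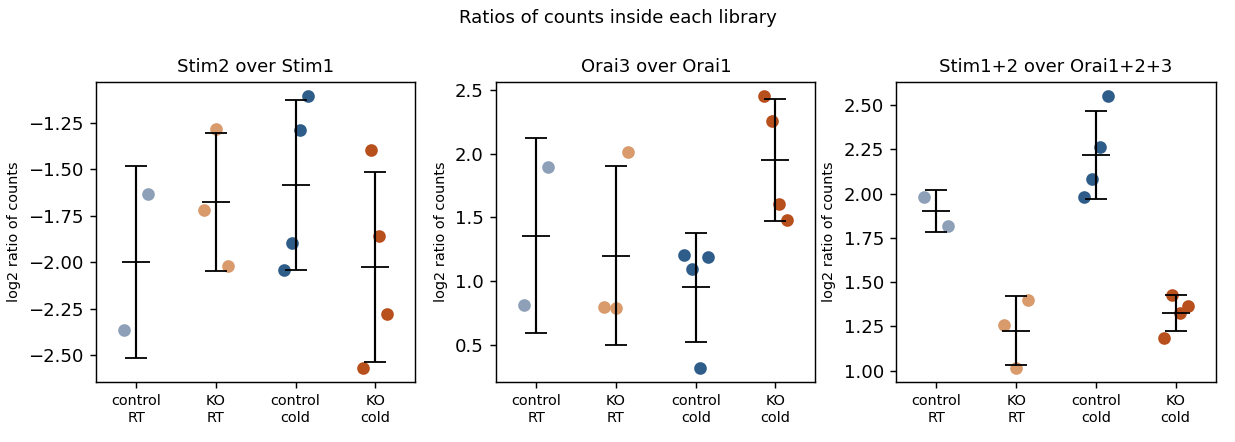
Log2 ratio of counts inside each library (points) by group for Stim2 over Stim1, Orai3 over Orai1 and summed Stim over summed Orai counts, with mean and SD in black. The Stim2 to Stim1 ratio overlaps between all groups, and the Orai3 to Orai1 ratio is higher in KO cold than in control cold without overlap.

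Saraf (ENSMUSG00000031532.8, chromosome 8), the brake on the channel, rose with cold in both genotypes and passed no test of genotype. Control RT libraries held 207 and 220.0 CPM, against 203, 206 and 218 CPM in KO RT. After cold the control libraries held 284, 287, 297 and 344 CPM, against 264, 268, 326 and 359 CPM in KO. Every cold library was above every RT library. Within each genotype alone, that held for 19.8% of tested genes in control and 15.8% in KO. The share over both genotypes together was not computed. It rose 1.42-fold in control (interval 1.15 to 1.75, 0.50 ± 0.14, edgeR adjusted p = 0.0168) and 1.46-fold in KO (interval 1.21 to 1.75, 0.54 ± 0.12, edgeR adjusted p = 0.00596). Averaged over both genotypes, the rise was 1.44-fold (interval 1.25 to 1.65, edgeR adjusted p = 0.000414).

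Many genes moved with cold: 25.2% of tested genes changed in control, 18.9% in KO (9.43% higher and 9.45% lower) and 38.3% over both genotypes (18.9% higher and 19.4% lower), and Saraf was 1 of the 5 tested members called in each. The call in control was lost without control RT 1 (adjusted p = 0.145), which leaves a single control RT library that is assumed to vary like the others. With library totals as the only scaling it was also lost (adjusted p = 0.145). With that scaling the median of all genes was -0.23 in control and -0.12 in KO, against -0.02 and -0.01 in the main fit. Saraf then stood at 0.30 and 0.43. Between genotypes Saraf held 99.3% of control over both temperatures (interval 86.6% to 114%), and its cold responses differed by 0.04 ± 0.19. Stim1, Stim2 and Orai1 were not called in either cold response. Stim1 had -0.15 ± 0.16 in control and 0.30 ± 0.15 in KO, Stim2 0.30 ± 0.28 and 0.02 ± 0.27, and Orai1 -0.09 ± 0.36 and -0.40 ± 0.33. Marker lists differed between cold and RT libraries too. The summed adipocyte markers were higher in every cold library (33308 to 40407 CPM) than in every RT library (24956 to 29180 CPM), although 4 of the 12 rose, 3 fell and the median was 0.08. Over both genotypes all 13 muscle markers fell (median -3.06). However, the muscle sums of control RT 2 and KO RT 3, 127 and 209 CPM, lay within the cold range of 53.0 to 483 CPM. The high sums were those of control RT 1 and KO RT 1 and 2. Of 11 fibroblast markers 1 rose and 4 fell, and of 12 endothelial markers 3 rose and 3 fell. The part of these marker lists in the levels of Saraf and the other members was not tested.

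The other genes of the pathway came from 8 lists of 107 symbols, of which 61 were tested. In KO against control in cold 5 rose, 4 fell and 52 did not pass, so that 14.8% changed against 5.93% of all tested genes. The median was -0.01, beside -0.01 for all tested genes. These lists were chosen with earlier results of these data known.

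Among 10 tested STIM regulators 2 rose in KO cold. Asph, whose locus also yields the ER calcium-binding protein junctate, rose from 82.95 ± 22.2 to 184 ± 87.5 CPM (1.14 ± 0.27, edgeR adjusted p = 0.0182, and 0.0521 and 0.0548 without control cold 3 or KO cold 4). Pdia3, an ER disulfide isomerase, rose from 76.6 ± 21.8 to 132 ± 35.5 CPM (0.79 ± 0.22, edgeR adjusted p = 0.0383), a call lost (0.0863 to 0.111) on removing any cold library other than control cold 4 and KO cold 1. The other 8 did not pass. Of 7 tested Orai regulators 1 fell: Cav1, the caveolar coat protein, from 664 ± 59.4 to 293 ± 18.4 CPM in cold (-1.18 ± 0.11, edgeR adjusted p = 1.82e-05). Cav1 was also the 1 pathway gene outside the STIM and Orai families that changed over both temperatures (-0.87 ± 0.09, edgeR adjusted p = 0.000231).

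Of 13 tested contact-site genes 1 rose in KO cold: Gramd1b, a sterol carrier (0.88 ± 0.23, edgeR adjusted p = 0.0308, lost at 0.0598 to 0.101 on removing KO cold 2 or 3 or any control cold library but the fourth). Of 10 tested genes for release and refilling of the ER store 2 rose and 1 fell. Itpr2, an inositol trisphosphate receptor, rose from 165 ± 19.9 to 232 ± 24.5 CPM (0.49 ± 0.11, edgeR adjusted p = 0.0171, and 0.0524 without KO cold 4). Plcg1, a phospholipase that makes its ligand, rose from 32.4 ± 5.98 to 54.8 ± 6.82 CPM (0.75 ± 0.15, edgeR adjusted p = 0.00730). Atp2a2, the pump that refills the ER, fell from 543 ± 55.1 to 337 ± 41.2 CPM (-0.68 ± 0.13, edgeR adjusted p = 0.00366).

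Of 4 tested extrusion genes 1 fell, the plasma membrane pump gene Atp2b1 (-0.57 ± 0.14, edgeR adjusted p = 0.0245, lost at 0.0562 to 0.0753 on removing KO cold 3 or 4, or control cold 2 or 4). Of 9 tested calcineurin and NFAT genes 1 fell: Rcan1, a feedback inhibitor of calcineurin, from 35.6 ± 1.89 to 24.9 ± 2.93 CPM (-0.51 ± 0.14, edgeR adjusted p = 0.0446). That call held in 1 of the 13 fits that leave out a library, the one without KO cold 2 (otherwise 0.0526 to 0.119). It held in 3 of the 8 other settings, and was lost with library totals only, DESeq2, no low-count filter, the replicate block and only the 2 groups compared (0.0809 to 0.173). Of 7 other tested plasma membrane calcium channels 0 passed in edgeR, and Trpc1, the 1 TRPC gene tested, did not pass (0.12).

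In cold against RT the same lists moved more: 9 rose and 13 fell of 61 in control, and 10 rose and 10 fell in KO. That is 36.1% and 32.8% called, against 25.2% and 18.9% of all tested genes. Trpc1, a cation channel subunit proposed to be store-operated, rose in both genotypes, from 13.5 ± 2.20 to 40.4 ± 15.5 CPM in control (1.58 ± 0.31, edgeR adjusted p = 0.00184) and from 12.1 ± 2.27 to 43.8 ± 3.80 CPM in KO (1.85 ± 0.27, edgeR adjusted p = 0.000249). Slc35g1, a partner of STIM1, rose in both as well (0.99 ± 0.23 and 0.81 ± 0.19, edgeR adjusted p = 0.00465 and 0.00735). Those calls were lost without control RT 1 (0.0539) and KO RT 1 (0.0564). Itpr2 fell by 1.37 in control and by 0.76 in KO on the log2 scale, and Atp2a2 rose by 1.29 and 0.68.

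Further genes called in both genotypes were, with the log2 change in control and then in KO, Ubqln1 (0.78 and 0.35), Calm2, a calmodulin gene (-0.67 and -0.55), Septin9 (-0.67 and -0.62), Vapa, an ER tether (0.64 and 0.54), and Esyt1, an ER to plasma membrane tether (-0.94 and -0.99). Osbpl5, a lipid carrier (-1.32 and -1.25), Plcb3, a phospholipase (-0.97 and -0.96), Ppp3ca, a calcineurin subunit (-0.35 and -0.40), and P2rx5, an ATP-gated channel (-3.08 and -2.39), did so too. Called in control were also Septin4 (-1.35), Septin7 (0.42), Cav1 (0.44), Gramd1a (-1.42), Plcg1 (-0.56) and Ppp3cb (0.34), besides Esyt2 (0.64), Gramd1c (-1.35) and Atp2a1 (-3.64). In KO the others were Asph (0.97), Pdia3 (0.95), Calm3 (-0.52), Gramd1b (1.31), Plcb4 (0.77), Rcan3 (-1.10) and Cacna1a (1.71). A call in 1 genotype does not show that the responses differ: 0 of the 61 passed the edgeR test of that difference. Under every alternative run, the calls of Trpc1, Itpr2, Atp2a2, Esyt1, Osbpl5, Calm2 and P2rx5 held in both genotypes. In control, the calls of Septin4, Gramd1a and Vapa were lost without control RT 1 alone (edgeR adjusted p = 0.356, 0.0634 and 0.0837). Those of Septin9 and Ppp3cb held in only 2 of the 13 fits that leave out a library and in 4 of the 8 other settings. Septin7, Cav1, Plcb3, Plcg1, Ppp3ca, Esyt2, Gramd1c and Atp2a1 were each lost without 2 or more of the libraries in turn, control RT 1 among them, and under at least 1 other setting. In KO, Ubqln1, Septin9, Calm3, Asph and Plcb3 were each lost without 2 or more of the libraries in turn (edgeR adjusted p up to 0.164), Pdia3 without KO RT 1 (0.0622), Ppp3ca without KO RT 3 (0.0570) and with no low-count filter (0.0657), and Rcan3 with DESeq2 (0.0683).

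**Figure D4:**
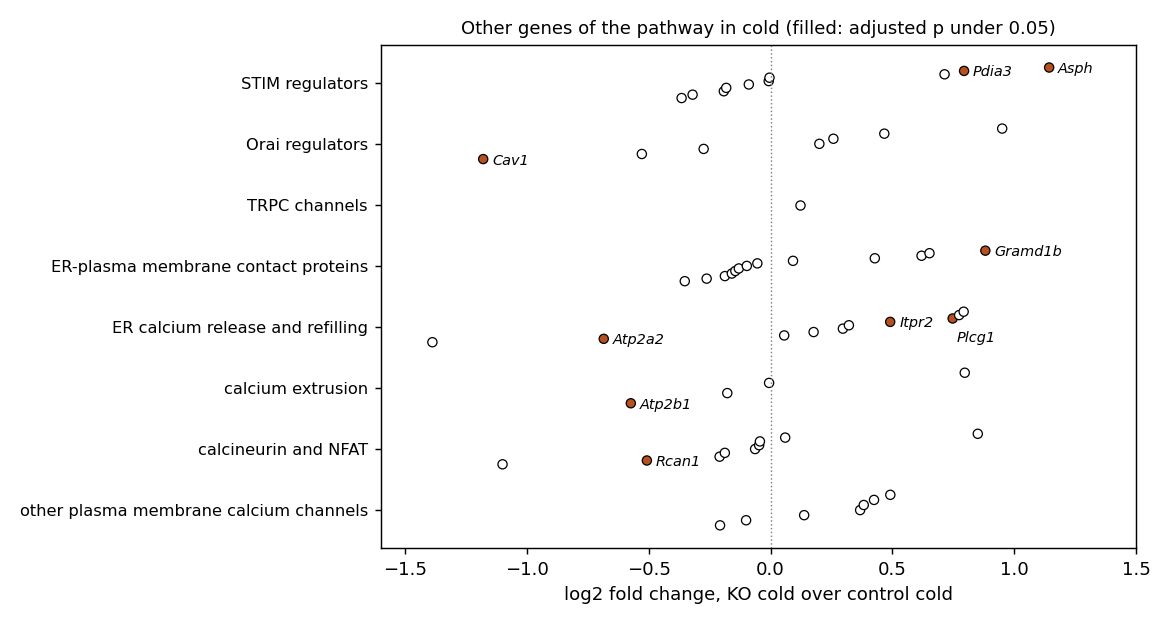
Log2 fold change of KO cold over control cold (x axis) for the 61 tested pathway genes, 1 row of points per list; filled and named points have an adjusted p under 0.05. Named genes lie on both sides of 0, from Cav1 (-1.18) to Asph (1.14).

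Genes with the pattern most like each member are given as a description, by Pearson correlation of log2 CPM over the 13 libraries among 10139 genes. The libraries share their group structure, so the value after subtracting group means follows in each case. For Stim1 these were Ppp2r5b, a phosphatase 2A subunit (0.86, then 0.83), Slc29a1, a nucleoside transporter (0.84, then 0.52) and Cop1, a ubiquitin ligase (0.83, then 0.48). For Stim2 they were Ccdc50 (0.90, then 0.79), Palld, of the actin cytoskeleton (0.89, then 0.75) and Slc5a3, an inositol transporter (0.86, then 0.83). For Orai3 they were Cpox, of heme synthesis (0.89, then 0.56), Ermp1, an ER peptidase (0.89, then 0.67) and Katnal2 (0.85, then 0.72). For Saraf they were Eng, 1 of the 12 endothelial markers (0.96, then 0.84), B4galt4 (0.95, then 0.77) and Hnrnpa3 (0.94, then 0.88). For Orai1 they were Gtf2h3 (0.85, then 0.84), Srr (0.83, then 0.80) and Bcr (0.83, then 0.83). None of the 6 genes was among the 3 nearest of another. Stim1 and Stim2 correlated at 0.57 over the 13 libraries and at -0.13 after subtracting group means. Stim2 and Orai3 were at -0.59 and -0.31. Stim2 and Saraf were at 0.35 and 0.71, the highest value of any pair of tested members after subtracting group means.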

How the data were processed

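RNA of brown adipose tissue was counted in 13 QuantSeq 3′ tag libraries, per the labels' protocols. The authors deposited raw counts per Ensembl gene, not normalized. Per the submitters' processing notes, the build was GRCm39 and the tools were HTSeq 0.12.3, STAR 2.7.10b, edgeR, limma, Trim Galore 0.6.7 and UMI-tools 1.1.2, with no roles given. Collapsing of molecular identifiers and use of strand: not given in the sources used here. In GENCODE M21, no other gene reached the 3′ end of a member.

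Of 55632 lines 275 repeated an identifier with equal counts and were dropped. A further 2558 genes had no symbol and kept their identifier. No sample column was left unmapped. No 2 libraries of a group agreed within counting error (chi-square over its degrees of freedom 1.92 to 6.36). The test was edgeR 4.0.16 (R 4.3.3) with filterByExpr (minimum count 10), TMM scaling, 1 quasi-likelihood fit with 4 group means, 7 two-sided contrasts, and Benjamini-Hochberg adjustment over 11073 genes. The common biological coefficient of variation was 16.1%. Ratios added 0.5 counts and used exact permutation of genotype, within temperature where both were used. Correlations used log2 CPM with a prior count of 2.

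Alternatives were DESeq2 1.42.0, limma 3.58.1 voom, other scalings and filters, a replicate block, fits of 2 groups and leaving out each library. Members and lists were chosen with earlier results of these data known. Named genes were the members, up to 4 called genes of smallest p per list and comparison, with the other called genes of the cold responses (Asph, Esyt2, Gramd1c and Atp2a1) added after their values were seen (counts alone are given for cold over both genotypes), and the 3 most correlated genes per member with a mean of at least 5 CPM.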

Additional observations from a re-analysis of the deposited data

Results flagged for a closer look

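Orai3 had cold responses of opposite sign without overlap, the rule by which it was flagged. Every control cold library was below both control RT libraries, as for 20.6% of tested genes. Every KO cold library was above every KO RT library, as for 15.8%. The share of genes meeting both was not computed. The difference of the responses was 0.79 on the log2 scale and its test did not pass (edgeR adjusted p = 0.414). Its size was 0.61 without control RT 2 and 0.99 without control RT 1. The RT libraries differed in muscle signal. KO RT 3, with the lowest muscle sum in KO RT, held 32.5 CPM of Orai3, against 33.4 to 36.7 CPM in KO cold. Control RT 2, with the lowest in control RT, held 36.8 CPM, against 19.8 to 28.2 CPM in control cold. It also had the highest lymphocyte marker sum of the 13 libraries, 71.1 CPM. The part of muscle or lymphocytes in these responses was not tested.

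In control cold, 1 library stood apart in the Orai3 to Orai1 ratio, control cold 3, with 35 and 28 counts. Its gap to the nearest library was 0.877 of the range of the 4 libraries, above Dixon's 95% critical value for 4 samples. It had the highest Orai1 level of all 13 libraries, 17.3 CPM. Chance alone passes this value in about 1 in 20 groups, and 16 group values were checked in this way.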

How the results depend on the processing

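Every alternative was run. Of the 5 tested genes, the number called in KO against control in cold was 2, and 1 with library totals only, limma voom and only the 2 groups compared (Orai3 each time) or no low-count filter and the replicate block (Stim2 each time). With a library left out it was 0 to 2. At RT it was 0, and 1 (Stim1) with DESeq2 and with no low-count filter. In control, cold against RT, it was 1 (Saraf), 1 of another gene (Orai3 in place of Saraf) with library totals only, 0 with only the 2 groups compared and 0 to 1 with a library left out. Over both temperatures it was 1 (Stim1), and 2 (Stim2 added) with DESeq2, no low-count filter and the replicate block. In the other 3 comparisons it did not move. The replicate block left the Orai3 to Orai1 ratio difference in cold at 0.998 and the Stim to Orai difference at -0.89 on the log2 scale. For the first, the exact p was 0.125, the smallest that 4 pairs give. With a library left out it was 0.79 to 1.15, with an exact p of 0.0571 to 0.0857 without any 1 control cold library. Whether the replicate numbers pair the samples is not stated. Deviations of same-numbered libraries correlated at a median of -0.05 (-0.23 to 0.33), beside 0.02 (-0.33 to 0.30) for libraries of other numbers. These correlations are not independent of each other and cannot exclude a pairing.

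The Stim2 to Stim1 difference over both temperatures, -0.06, was 0.0267 with the replicate block and -0.24 to 0.12 with a library left out. Among the members 26 signs turned, with 0 of those results called in either fit. Of the other pathway genes 1 turned: Atp2a1, the muscle form of the ER pump, called in control cold against RT at -3.64, was -4.69 to 6.16 with a library left out (6.16, edgeR adjusted p = 0.513, without control RT 1). Library totals only gave Stim2 -0.0944 in KO cold against RT, Saraf 0.0371 in KO against control over both temperatures, and Stim1 -0.0860 and Stim2 -0.000300 in cold against RT over both genotypes. Stim2 in KO cold against RT was -0.0290 with limma voom and -0.0766 with the replicate block. With a library left out, Saraf in KO against control was -0.0754 to 0.0760 in cold, -0.0806 to 0.0209 at RT and -0.0551 to 0.0234 over both temperatures, and its difference of cold responses was -0.0406 to 0.105. Orai1 was -0.36 to 0.36 in KO against control at RT and -0.37 to 0.35 in control cold against RT. Stim2 in KO cold against RT was -0.13 to 0.20, and Orai3 in cold against RT over both genotypes -0.152 to 0.0428. The cause of these moves was not tested.

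Over all genes, KO against control in cold called 392 to 425 without any 1 KO cold library, against 657. With library totals only it called 472 higher and 264 lower, against 270 and 387, and over both temperatures 84 and 80, against 48 and 96. For cold against RT that scaling gave 789 higher and 2335 lower in control (1401 and 1392), 750 and 1455 in KO (1044 and 1046), and 1290 and 3249 over both genotypes (2093 and 2152). Over both temperatures 144 became 230 with DESeq2, 467 with no low-count filter, and 64 to 95 without KO cold 2, control RT 2 or any KO RT library. At RT 0 became 3 with DESeq2 or without control RT 1, and 50 with no low-count filter. Cold against RT in control called 1685 with only the 2 groups compared and 1067 without control RT 1, against 2793, and in KO 1219 without KO RT 1, against 2090. The difference of cold responses called 2, and 30 with DESeq2, 133 with no low-count filter, 1 with limma voom, 0 with the replicate block and 0 to 4 with a library left out. Orai1 and Orai2 had the fewest counts of the 6 genes.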
